A study of Mus musculus with 33 samples.

Results

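The 8 genes described here encode the TGF-beta ligands Tgfb1, Tgfb2 and Tgfb3, the receptors Tgfbr1 and Tgfbr2, and the SMAD proteins Smad2, Smad3 and Smad4. They were chosen by name, and all 8 had a probe among the 750 endogenous probes of the NanoString immune panel used. Total bone marrow RNA came from 33 female C57BL/6 mice, 6 to 8 weeks old and without any transgene, leukaemia or transplant named in their labels, and each mouse was measured in 1 lane. Venetoclax, an inhibitor of the survival protein BCL2, or its vehicle of phosal, polyethylene glycol and ethanol was given by gavage 1 time a day for 2 days. Ruxolitinib, an inhibitor of the JAK1 and JAK2 kinases, or its vehicle of DMSO, polyethylene glycol and water was given by gavage 2 times a day for 2 days. The marrow was taken 1, 3 or 7 days after treatment from 3 mice per drug group and 2 mice per vehicle group, and from 3 untreated mice, making 13 groups. The mice of each day were measured in a run of 11 lanes that also held 1 untreated mouse, so in treated mice the day and the run cannot be told apart. Days follow the sample labels: the file headers of the day 3 mice name their run day 2, and it is called the day 3 run here.

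TGF-beta is secreted in a latent form and, once released, binds the type II receptor (Tgfbr2), which phosphorylates the type I receptor (Tgfbr1). The type I receptor phosphorylates SMAD2 and SMAD3, and these join SMAD4 and enter the nucleus to regulate transcription. In bone marrow the pathway is known for restraining the division of blood stem cells, and megakaryocytes and platelets are rich in TGF-beta 1.

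The 33 lanes held between 18056 and 466096 endogenous counts, with a median of 158944. Only 2 lanes were under 30000 counts, those of venetoclax day 1 mouse 1 and ruxolitinib day 3 mouse 1, where 40.1% and 33.6% of endogenous probes were above background, which is the mean plus 2 SD of the negative control probes of a lane. The untreated mouse of the day 1 run, at 47977 counts, had 38.5% above background. All 7 neutrophil markers on the panel were above background in every lane, as were 3 of 8 B lineage, 1 of 5 stromal and 0 of 3 progenitor markers. These markers go with the tissue label but cannot tell marrow from blood. In RNA from whole marrow, fewer cells of a type and less RNA per cell cannot be told apart. All values below are normalised counts, scaled on 11 housekeeping probes, and levels of different probes were not compared, apart from within-lane ratios followed across runs.

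Transcripts of 6 of the 8 genes were detected in nearly every mouse. Tgfb1, Tgfbr2 and Smad3 were above background in 33 of 33 lanes, Tgfbr1 and Smad4 in 32, and Smad2 in 31. The ligands Tgfb2 and Tgfb3 were at the limit of detection, with 1 to 6 and 1 to 7 raw counts per lane. Tgfb2 was above background in 1 lane, that of venetoclax day 3 mouse 3, and was not tested. Tgfb3 was above background in 2 lanes, those of ruxolitinib day 1 mouse 1 and venetoclax day 3 mouse 3, so its values carry wide errors. Testing required a count over background in 2 lanes or more, and 655 genes met this, 7 of the 8 described here among them.

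**Figure D1:**
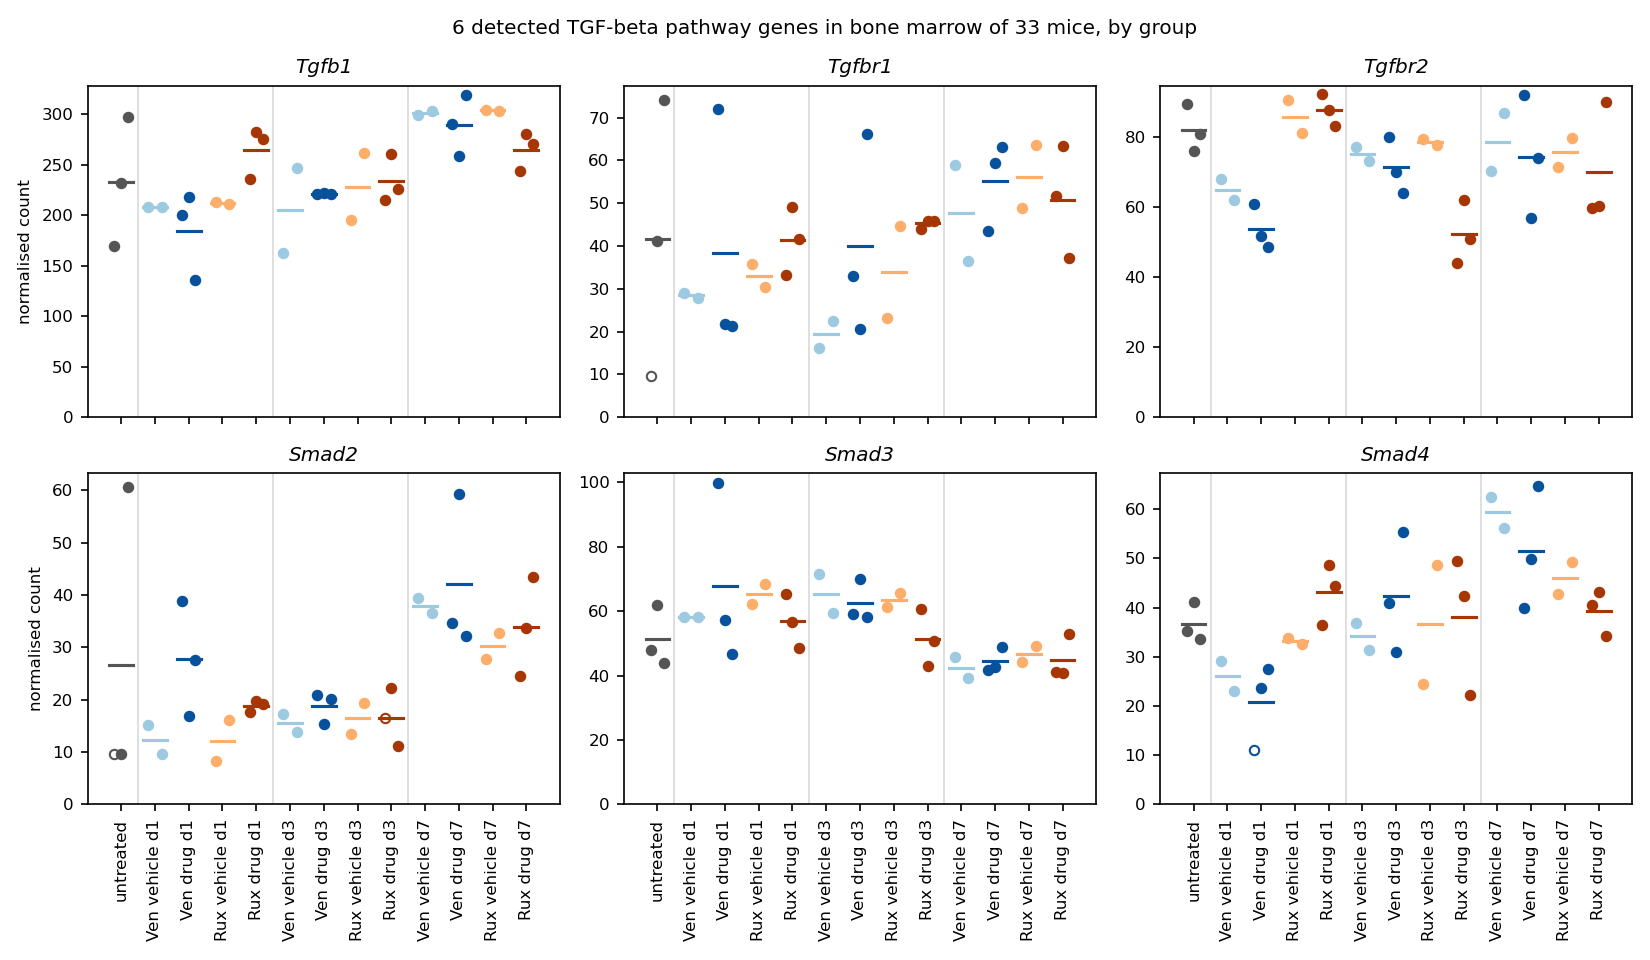
Normalised counts of 6 detected TGF-beta pathway genes in each of 33 mice (vertical axes start at 0), by group along the horizontal axis; points are mice, open where the count was not above background, and bars are group means. In the 4 day 7 vehicle mice Tgfb1 sat between 298.9 and 304.03 and Smad2 between 27.8 and 39.5, above the 8 vehicle mice of days 1 and 3.

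Tgfb1, the ligand that most immune cells make, had its lowest group mean in venetoclax day 1 mice, 184.5 ± 43.2 (SD, n = 3), and its highest in ruxolitinib vehicle day 7 mice, 303.7 ± 0.524 (SD, n = 2). Tgfbr1, the kinase that acts on SMADs, ranged from 19.4 ± 4.56 (SD, n = 2) in venetoclax vehicle day 3 mice to 56.2 ± 10.4 (SD, n = 2) in ruxolitinib vehicle day 7 mice. Tgfbr2, the receptor that first binds the ligand, ranged from 52.3 ± 9.14 (SD, n = 3) in ruxolitinib day 3 mice to 87.7 ± 4.56 (SD, n = 3) in ruxolitinib day 1 mice. The receptor genes therefore had their extreme group means in different groups. Among single mice, however, the highest Tgfbr1 value of all 33, 74.2, was that of an untreated mouse. Another untreated mouse had 9.60, from 3 raw counts that were not above background, so its rank is not known. Smad2 ranged from 12.2 ± 5.55 (SD, n = 2) in ruxolitinib vehicle day 1 mice to 42.1 ± 14.96 (SD, n = 3) in venetoclax day 7 mice. Smad3, the other SMAD that the receptor phosphorylates, ranged from 42.5 ± 4.52 (SD, n = 2) in venetoclax vehicle day 7 mice to 67.9 ± 28.1 (SD, n = 3) in venetoclax day 1 mice. That highest group held 99.8 in the lane of 18056 counts, from 18 raw counts, and 57.3 and 46.7 in its other mice. Smad4, the common partner of Smad2 and Smad3, ranged from 20.8 ± 8.61 (SD, n = 3) in venetoclax day 1 mice to 59.3 ± 4.48 (SD, n = 2) in venetoclax vehicle day 7 mice. When the 13 group means of a gene were put in order, which sets the most similar groups side by side, the ranges of neighbours overlapped in 12 of 12 pairs for Smad2, 11 of 12 for Tgfbr2, Smad3 and Smad4, and 10 of 12 for Tgfb1 and Tgfbr1. Over all 13 groups, Smad2 (adjusted p = 0.0103) and Smad4 (adjusted p = 0.0223) were the 2 of 7 tested genes called by edgeR for any difference, beside 36.3% of all 655 genes tested. Limma called 0 of the 7, beside 147 of all genes, and after background subtraction 0 of the 7, beside 59. Leaving out a mouse gave 1 to 4 with edgeR.

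The first comparison asked whether either drug changed the pathway against its own vehicle. No TGF-beta gene passed the test on any day for either drug. On day 1 after venetoclax, 0 of 7 genes were called, beside 0.153% of all genes tested, and on day 1 after ruxolitinib 0 of 7, beside 2.75%. On day 3 it was 0 of 7 for venetoclax, beside 0% of all genes, and 0 of 7 for ruxolitinib, beside 0.153%, and on day 7 it was 0 of 7 for each drug, beside 0.153% in each. Of the 42 gene and comparison pairs, 2 had an unadjusted p under 0.05 by edgeR, beside 7.94% of all pairs over the 655 genes. In 10 of the 42 pairs every drug-treated mouse lay on 1 side of every vehicle mouse, beside 24.7% of all pairs. DESeq2 and limma also called 0 of these genes in each of the 6 comparisons. Of all genes, DESeq2 called 4 on day 1 after venetoclax and 15 after ruxolitinib, and 1 and 2 on day 3. Limma called 0 and 5 of all genes on day 1, and 0 on day 7 after either drug.

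Among the ligands, Tgfb1 on day 1 was 235.4, 281.7 and 275.1 in ruxolitinib-treated mice and 212.5 and 210.9 in their vehicle mice. These groups did not overlap, with all 3 treated mice higher. The log2 fold change was 0.32 ± 0.22 (SE; 95% interval -0.12 to 0.76; adjusted p = 0.573). After venetoclax on the same day Tgfb1 was 199.7, 218.01 and 135.8, against 208.2 and 207.9 in vehicle mice. The vehicle mice lay within the range of the treated mice, and the log2 fold change was -0.17 ± 0.23 (SE; 95% interval -0.63 to 0.30; adjusted p = 0.864). On day 7 ruxolitinib-treated mice had 243.2, 280.2 and 270.2, against 304.03 and 303.3 in vehicle mice. Here the groups did not overlap either, with the treated mice lower, and the log2 fold change was -0.20 ± 0.22 (SE; adjusted p = 0.999). Averaged over the 3 days, the log2 fold change of Tgfb1 was -0.04 (95% interval -0.30 to 0.22) for venetoclax and 0.06 (95% interval -0.20 to 0.32) for ruxolitinib.

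Of the receptors, Tgfbr1 had the largest difference from vehicle among the 6 detected genes, on day 3 after venetoclax. The treated mice had 33.1, 20.6 and 66.2 and the vehicle mice 16.1 and 22.6. The groups overlapped, since treated mouse 2 lay between the vehicle mice, and mouse 3 was highest. The log2 fold change was 1.03 ± 0.44 (SE; 95% interval 0.14 to 1.92; unadjusted p = 0.0233 and adjusted p = 0.41 by edgeR). Over the alternative settings the lowest adjusted p in that comparison was 0.122, for the same gene, without venetoclax day 3 mouse 2. On day 1 the venetoclax-treated mice had Tgfbr1 at 72.1, 21.8 and 21.2, against 29.1 and 27.9 in vehicle mice. The mouse at 72.1 was the lane of 18056 counts, in which Tgfbr1 had 13 raw counts.

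Tgfbr2 had the largest negative difference, on day 3 after ruxolitinib. The treated mice had 44.03, 62.1 and 50.8 and the vehicle mice 79.6 and 77.8. All 3 treated mice were below both vehicle mice. The log2 fold change was -0.51 ± 0.23 (SE; 95% interval -0.97 to -0.05; unadjusted p = 0.0295 and adjusted p = 0.865 by edgeR). The lowest of the treated values came from the lane of 26881 counts, with 8 raw counts. In the same comparison the summed level of the 8 B lineage markers was 311 to 424 in treated mice and 690 to 727 in vehicle mice, with a median log2 fold change of -1.02. Of these markers 1 was called, Igll1, part of the pre-B cell receptor, with -1.93 ± 0.34 (SE; adjusted p = 0.00111 by edgeR). On day 1 after venetoclax Tgfbr2 was 61.0, 51.7 and 48.8, against 68.0 and 62.1 in vehicle mice. Again the groups did not overlap, and the log2 fold change was -0.31 ± 0.24 (SE; adjusted p = 0.752). The B lineage sums were 505 to 527 there, against 550 to 677, and 0 of the 8 markers were called. On day 1 after ruxolitinib it was 92.3, 87.7 and 83.1, against 90.7 and 81.1, with a log2 fold change of 0.04 ± 0.20 (SE). There the groups overlapped.

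Among the SMADs, Smad2 on day 1 was 38.8, 16.8 and 27.6 after venetoclax, against 15.1 and 9.56 in vehicle mice. All 3 treated mice were above both vehicle mice, and the highest was again the lane of 18056 counts, with 7 raw counts. The log2 fold change was 0.90 ± 0.52 (SE; 95% interval -0.15 to 1.96; adjusted p = 0.556). After ruxolitinib on day 1 Smad2 was 17.6, 19.8 and 19.1, against 8.24 and 16.1 in vehicle mice. These groups did not overlap either, with a log2 fold change of 0.51 ± 0.42 (SE; adjusted p = 0.628). Averaged over the 3 days, Smad2 differed from vehicle by 0.41 (95% interval -0.12 to 0.95) for venetoclax and by 0.24 (95% interval -0.27 to 0.74) for ruxolitinib on the log2 scale. The interval for venetoclax thus reached to almost a doubling, and neither mean passed the test. Smad3 on day 3 was 60.5, 43.1 and 50.8 after ruxolitinib, against 61.2 and 65.7 in vehicle mice, with a log2 fold change of -0.39 ± 0.24 (SE; adjusted p = 0.998). Its groups were adjacent without overlap. Smad4 on day 1 was 36.4, 48.6 and 44.3 after ruxolitinib, against 33.9 and 32.5, with a log2 fold change of 0.38 ± 0.27 (SE; adjusted p = 0.598). The treated mice were the higher ones. After venetoclax on day 1 Smad4 was 11.1, 23.7 and 27.6, against 29.1 and 23.1, and the lowest of these values was a lane with 2 raw counts, not above background.

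Lists of markers of 10 marrow cell types were summed in the same comparisons, without subtracting background. No T cell, NK, regulatory T cell or progenitor marker was above background in every lane, and 1 of 6 endothelial and 1 of 5 stromal markers were. Background was 18.6 normalised counts per probe in venetoclax day 7 mouse 2, so sums of these lists can hold background, more so in shallow lanes. Drug-treated and vehicle mice did not overlap in 3, 1 and 3 of the 10 sums on days 1, 3 and 7 for venetoclax, and in 5, 2 and 1 for ruxolitinib. Among all genes tested, 24.7% of the gene and comparison pairs did not overlap, so these counts alone are not read as changes of cell types. On day 1 after ruxolitinib, where Tgfb1, Smad2 and Smad4 lay above vehicle, the 5 stromal markers summed to 247 to 322, against 100 to 111 in vehicle mice, with a median log2 fold change of 1.25. Of these Cxcl12, a chemokine gene of marrow stroma, was called, at 1.93 ± 0.41 (SE; adjusted p = 0.00533 by edgeR). Sums of T cell (82.0 to 89.7 against 77.0 to 80.6) and progenitor markers (39.9 to 41.4 against 23.8 to 35.3) were also higher there, and those of NK markers (63.4 to 73.3 against 83.3 to 101) lower. The neutrophil sum was lower too (76770 to 89241 against 94986 to 101811), although the median log2 fold change of its 7 markers was 0.58, so sum and median differed in sign. On day 1 after venetoclax, stromal sums were 123 to 139 against 110 to 119 and megakaryocyte and platelet sums 148 to 194 against 206 to 276. On day 3 after venetoclax, where Tgfbr1 had its largest difference, T cell sums were 43.5 to 57.7 against 83.0 to 118. On day 3 after ruxolitinib, monocyte and macrophage sums were 1172 to 1511 against 1087 to 1165. On day 7 after ruxolitinib, where Tgfb1 was below vehicle, B lineage sums were 429 to 472 against 660 to 661. On day 7 after venetoclax, T cell sums were lower (46.5 to 71.1 against 88.3 to 143) and those of regulatory T cell (59.6 to 86.9 against 47.8 to 56.6) and endothelial markers (102 to 151 against 89.9 to 95.3) higher. Single markers called besides these were Igll1 on day 7 for venetoclax (-1.54 ± 0.31 SE; adjusted p = 0.0142 by edgeR) and the regulatory T cell marker Il2ra on day 7 for ruxolitinib (-1.92 ± 0.37 SE; adjusted p = 0.00472). The part of any of these markers in the values of the TGF-beta genes was not tested.

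**Figure D2:**
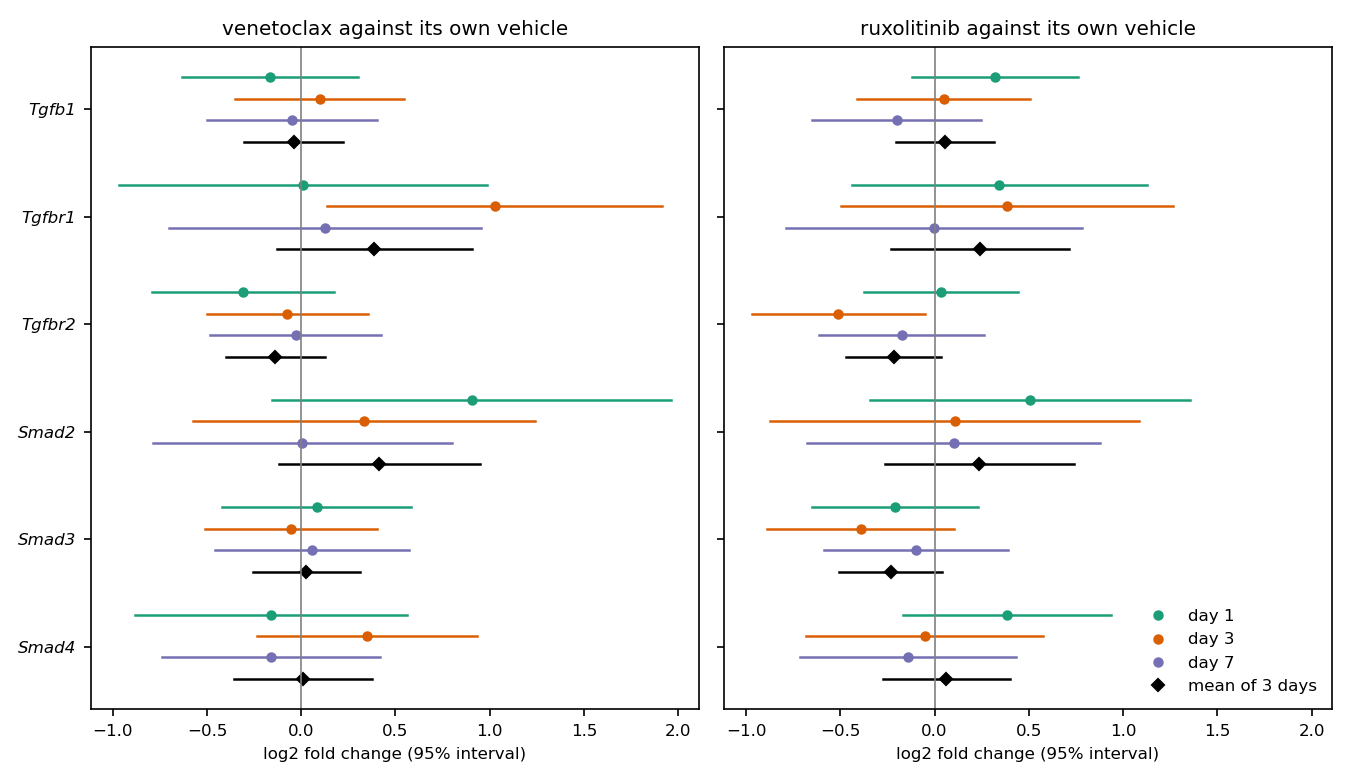
Log2 fold change of 6 TGF-beta pathway genes between drug-treated mice and their own vehicle mice (horizontal axis), with 95% intervals, on each day (circles) and as the mean of 3 days (diamonds). All intervals but those of Tgfbr1 on day 3 after venetoclax (0.14 to 1.92) and Tgfbr2 on day 3 after ruxolitinib (-0.97 to -0.05) include 0, and neither of these 2 passed the adjusted test.

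The mean of 3 days called 0 of 7 genes for venetoclax, beside 2.9% of all genes tested, and 0 of 7 for ruxolitinib, beside 1.22%. Over these 2 comparisons the lowest adjusted p of any TGF-beta gene was 0.551. The change after venetoclax was also set against the change after ruxolitinib. It differed in 0 of 7 genes on day 1, beside 1.68% of all genes, 0 of 7 on day 3, beside 0.153%, and 0 of 7 on day 7, beside 0.305%. For Tgfb1 on day 1 the difference between the drugs was -0.49 on the log2 scale (95% interval -1.13 to 0.16). For Tgfbr2 on day 3 it was 0.44 (95% interval -0.19 to 1.07), so a difference of 2-fold between the drugs lay inside both intervals. The change on day 7 minus that on day 1 was called in 0 of 7 genes for venetoclax, beside 0% of all genes, and in 0 of 7 for ruxolitinib, beside 1.53%. For Tgfb1 after ruxolitinib that difference was -0.52 (95% interval -1.15 to 0.11).

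The vehicles were then compared with each other and with untreated mice. Ruxolitinib vehicle differed from venetoclax vehicle in 0 of 7 genes and vehicle-treated from untreated mice in 0 of 7. Both counts stood beside 0% of all genes. By edgeR no TGF-beta gene had an unadjusted p under 0.05 in either comparison. Of all genes tested, 18 had such a p between the vehicles and 75 between vehicle-treated and untreated mice. Untreated mice had Tgfbr2 at 89.6, 76.2 and 80.9, within the range of 62.1 to 90.7 in the 12 vehicle-treated mice. For Tgfbr2 the vehicle-treated mice differed from untreated mice by -0.10 (95% interval -0.44 to 0.24) on the log2 scale. In contrast, untreated mice were far apart in Smad2 and Tgfbr1. Smad2 was 9.60, 9.71 and 60.7 in the untreated mice of the day 1, day 3 and day 7 runs, and Tgfbr1 was 9.60, 41.1 and 74.2. The mouse of the day 7 run was the highest of the 3 for both genes, and that of the day 1 run was not above background for either.

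TGF-beta genes were called between days, in mice that received vehicle alone. By edgeR, Smad2, Smad4 and Tgfb1 were called higher on day 7 than on day 1, days that were also separate runs. Tgfbr2 stayed within 0.36 log2 units of its day 1 level by its 95% interval. From day 1 to day 3 no gene of the 7 was called, beside 0% of all genes. From day 1 to day 7, 3 of 7 were called, all higher, beside 30.1% of all genes tested (20% higher and 10.1% lower). From day 3 to day 7, 4 of 7 were called, 3 higher and 1 lower, beside 29.6% (18.3% higher and 11.3% lower). A large share of the panel was thus called in each comparison, and counts of 3 and 4 of 7 are not a result particular to these genes. The median log2 fold change of all genes was 0.19 from day 1 to day 7 and 0.09 from day 3 to day 7. That of the 7 tested genes was 0.53 and 0.55, and it moved with the scaling as the median of all genes did. From day 1 to day 7 it was 0.30 with TMM, when that of all genes was -0.0071, and 0.77 with the total count, when that of all genes was 0.44.

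Tgfb1 was 298.9 and 303.4 in the venetoclax vehicle mice and 304.03 and 303.3 in the ruxolitinib vehicle mice of day 7. On day 1 the vehicle mice had 208.2, 207.9, 212.5 and 210.9, and on day 3 they had 162.6, 247.0, 194.7 and 261.1. All 4 day 7 mice were above the other 8, and the log2 fold change was 0.53 ± 0.17 (SE; adjusted p = 0.0181) against day 1 and 0.48 ± 0.17 (SE; adjusted p = 0.0346) against day 3. Under TMM, DESeq2 or all-housekeeping scaling it was not called in either comparison, with adjusted p of 0.16 to 0.25. Tgfbr1 was 59.0, 36.5, 48.8 and 63.5 on day 7, against 29.1, 27.9, 35.7 and 30.5 on day 1 and 16.1, 22.6, 23.3 and 44.6 on day 3. The day 7 mice were all above the day 1 mice and overlapped the day 3 mice through a mouse at 44.6. Tgfbr1 rose from day 3 to day 7 by 1.00 ± 0.33 (SE; adjusted p = 0.0193), and its difference from day 1, 0.79 ± 0.32, did not pass the test (adjusted p = 0.053). The call against day 3 was lost with all-housekeeping scaling (adjusted p = 0.054). Tgfbr2 was 70.3, 87.1, 71.4 and 79.9 on day 7, against 68.0, 62.1, 90.7 and 81.1 on day 1. The day 7 mice lay within the range of the day 1 mice, with a log2 fold change of 0.02 ± 0.17 (SE; 95% interval -0.32 to 0.36).

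Smad2 was 39.5, 36.5, 27.8 and 32.8 in the day 7 vehicle mice, against 15.1, 9.56, 8.24 and 16.1 on day 1 and 17.3, 13.8, 13.5 and 19.5 on day 3. The 4 day 7 mice were all above the other 8. Smad2 rose by 1.41 ± 0.34 (SE; adjusted p = 0.00191) from day 1 and by 1.07 ± 0.33 (SE; adjusted p = 0.0127) from day 3. Smad3 moved the other way, at 45.7, 39.3, 44.3 and 49.2 on day 7, against 58.3, 58.2, 62.3 and 68.5 on day 1 and 71.5, 59.4, 61.2 and 65.7 on day 3. Its day 7 mice were all below the other 8. Smad3 fell by 0.52 on the log2 scale from day 3 (SE 0.18; adjusted p = 0.0327), and its difference of -0.46 ± 0.18 from day 1 did not pass the test (adjusted p = 0.0517). With total count scaling the call against day 3 was lost (adjusted p = 0.429). Smad4 was 62.5, 56.2, 42.7 and 49.2 on day 7, against 29.1, 23.1, 33.9 and 32.5 on day 1 and 36.9, 31.4, 24.5 and 48.7 on day 3. Its day 7 mice were all above the day 1 mice and overlapped the day 3 mice through the mouse at 48.7. Smad4 rose by 0.83 ± 0.23 (SE; adjusted p = 0.00519) from day 1, and its difference of 0.55 ± 0.22 from day 3 was not called (adjusted p = 0.0627). With DESeq2 the call against day 1 was lost (adjusted p = 0.0622). Day 7 vehicle mice did not overlap those of days 1 and 3 in Tgfb1, Smad2 and Smad3, that is in 3 of the 7 tested genes, beside 22% of all genes tested.

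These counts rested on few mice and on the test, since limma called 2 of the 7 genes between days 1 and 7, beside 121 of all genes where edgeR called 197, and none between days 3 and 7, beside 119 where edgeR called 194. Without venetoclax vehicle day 7 mouse 1, Smad2 alone was called between days 1 and 7, and no TGF-beta gene between days 3 and 7. Between days 3 and 7 the count of 4 also went to 0 without ruxolitinib vehicle day 3 mouse 1, to 1 without venetoclax vehicle day 3 mouse 1, and to 2 without venetoclax vehicle day 7 mouse 2 or without ruxolitinib vehicle day 7 mouse 1. Of the 8 fits that left out a mouse, Smad2 between days 1 and 7 was called in 8, with log2 fold changes of 1.24 to 1.74, Smad4 in 7 and Tgfb1 in 4. Between days 3 and 7 Smad2 and Tgfbr1 were called in 5 of 8 such fits and Tgfb1 and Smad3 in 2 of 8, with adjusted p of up to 0.0982, 0.26, 0.198 and 0.156. Among the 9 other planned settings Smad2 between days 1 and 7 was called in 8, and after background subtraction with limma its adjusted p was 0.222.

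**Figure D3:**
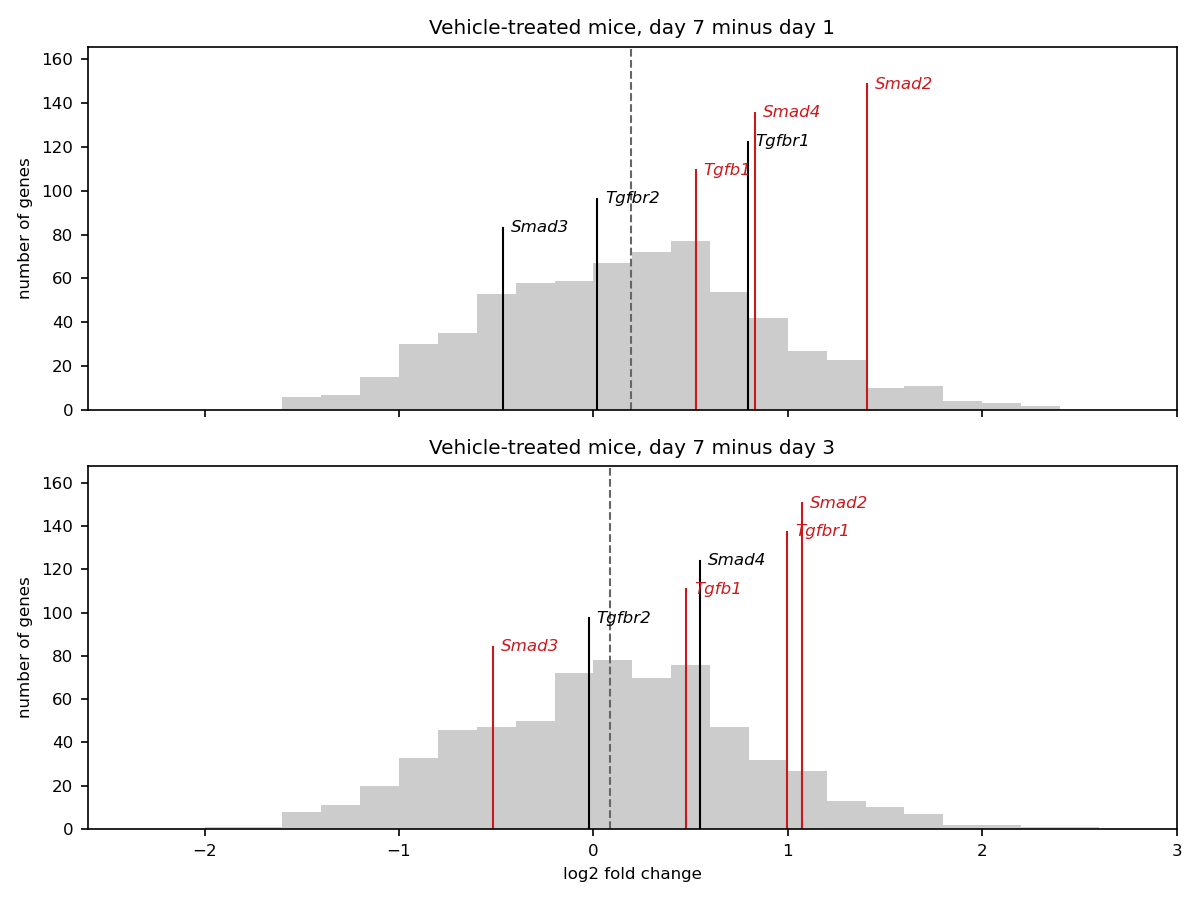
Log2 fold changes of all 655 genes tested between the day 7 and day 1 (top) and day 7 and day 3 (bottom) vehicle-treated mice, as histograms with the number of genes on the vertical axis. Lines mark 6 TGF-beta pathway genes (red where the adjusted p was under 0.05; line heights only separate the names), and the dashed line marks the median gene, at 0.19 and 0.09.

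The untreated mice, which had no day of treatment, were compared between runs in a further edgeR fit that gave each of them a mean of its own, so that its spread came from the treated groups alone. The untreated mice as a group had Smad2 at 26.7 ± 29.5 (SD, n = 3), a spread that this fit leaves out, and its calls are listed here and not read as results. Between the mice of the day 7 and day 3 runs Smad2 alone of the 7 genes was called, from 18 and 13 raw counts, at normalised counts of 60.7 and 9.71, beside 0.611% of all genes tested. Between those of the day 7 and day 1 runs Smad2 and Tgfbr1 were called, beside 9.31% of all genes. The day 1 mouse had 3 raw counts for each of these 2 genes, under its background of 7.47 counts. Between those of the day 3 and day 1 runs 0 of 7 were called, beside 0.763%. Tgfb1 was at 169.6, 231.6 and 296.6 in the untreated mice of the day 1, day 3 and day 7 runs and Smad4 at 35.2, 41.1 and 33.7, and neither gene was called.

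The difference between the untreated mice was then subtracted from that between vehicle mice in the same further fit, an alternative chosen after seeing the data. From day 1 to day 7 the log2 value became -0.28 for Tgfb1 and 0.89 for Smad4. From day 3 to day 7, among the genes called there, it became -1.56 for Smad2. It shrank to 0.14 for Tgfbr1, 0.12 for Tgfb1 and -0.016 for Smad3. The values of Smad2 and Tgfbr1 against day 1 rest on the counts under background and are not read. The subtraction left 0 of the 7 genes called in either comparison and 0 of all 655, so its count says nothing particular to these genes.

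Ratios of counts within a lane do not depend on any scaling, and 4 were looked at after the values were seen. That of Smad2 to Smad3, a gene that rose over one that fell between days 3 and 7, is given as a description, since its members were chosen with these values known. In the 11 lanes of the day 7 run its log2 value lay between -0.74 and 0.47, and in the 22 lanes of the other runs between -2.92 and -0.76, so they did not overlap, by a small margin. In day 7 vehicle mice the median was -0.40 and in day 7 drug-treated mice -0.28, and the untreated mouse of that run was at 0.47. The untreated mice of the day 1 and day 3 runs were at -2.32 and -2.67, the former from a Smad2 count that was not above background, as was that of ruxolitinib day 3 mouse 1. The other 3 ratios overlapped between the day 7 run and the rest. For Smad4 to Smad3 the lowest lane of the day 7 run was at -0.63 and the highest of the other runs at -0.03, for Tgfb1 to Tgfbr2 they were at 1.58 and 2.29, and for Tgfbr1 to Tgfbr2 at -1.27 and 0.24, all from counts above background.

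**Figure D4:**
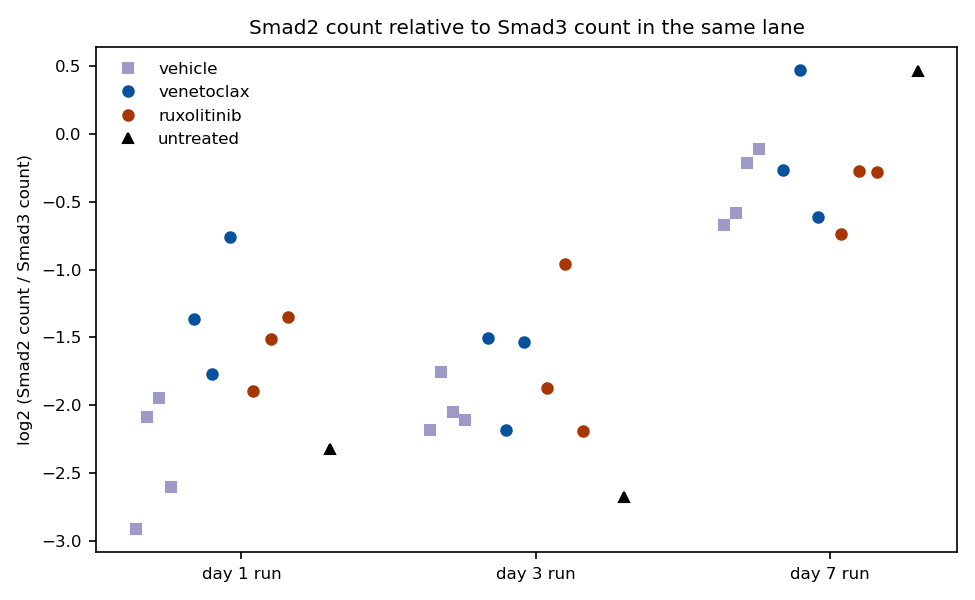
Log2 ratio of the Smad2 count to the Smad3 count in each lane (vertical axis), by run (horizontal axis); squares are vehicle-treated mice, circles drug-treated mice and triangles untreated mice. The 11 lanes of the day 7 run lie between -0.74 and 0.47, above the 22 lanes of the other runs, of which the highest is at -0.76.

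Of the genes that were called between days, Tgfb1, Tgfbr1 and Smad3 have an entry in the table of RefSeq promoters (build GRCm38.p6) used here, which was matched by symbol for 5 of the 8 genes. The sequences below are shown because Tgfb1 and Tgfbr1 moved up and Smad3 moved down between the same days. Each runs 5′ to 3′ from 250 bases before to 50 bases after the gene start. Capitals mark matches, on either strand, to the SMAD-binding core CAGAC, the GC box GGGCGG or the AP-1 site TGANTCA.
Tgfb1, chr7:25686752-25687051, plus strand: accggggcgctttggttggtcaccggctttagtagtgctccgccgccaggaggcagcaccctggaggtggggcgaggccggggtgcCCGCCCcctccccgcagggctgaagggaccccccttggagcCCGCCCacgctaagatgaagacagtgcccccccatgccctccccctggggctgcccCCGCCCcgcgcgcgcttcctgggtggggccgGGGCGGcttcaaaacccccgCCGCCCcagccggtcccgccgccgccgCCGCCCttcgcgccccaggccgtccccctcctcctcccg
Tgfbr1, chr4:47352972-47353271, plus strand: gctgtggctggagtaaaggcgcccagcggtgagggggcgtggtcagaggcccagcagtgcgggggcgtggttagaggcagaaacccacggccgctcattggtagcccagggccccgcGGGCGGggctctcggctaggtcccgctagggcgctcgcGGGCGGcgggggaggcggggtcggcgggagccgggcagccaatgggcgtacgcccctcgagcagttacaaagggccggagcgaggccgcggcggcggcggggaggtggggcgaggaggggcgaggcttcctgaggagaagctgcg
Smad3, chr9:63757945-63758244, minus strand: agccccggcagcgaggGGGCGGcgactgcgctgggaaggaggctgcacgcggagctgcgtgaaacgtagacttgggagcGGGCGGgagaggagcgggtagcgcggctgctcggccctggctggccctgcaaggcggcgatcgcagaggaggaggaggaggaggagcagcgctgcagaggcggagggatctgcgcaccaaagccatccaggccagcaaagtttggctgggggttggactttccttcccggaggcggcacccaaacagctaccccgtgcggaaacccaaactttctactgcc
The Tgfb1 window held 6 matches to GGGCGG, and those of Tgfbr1 and Smad3 held 2 each, beside 35.6% of all 32817 promoter windows of the same length with at least 1. A further Tgfbr1 start in the table, at chr4:47385966-47386265, is not printed, and its window held 1 match to CAGAC and 0 to GGGCGG. None of the 3 windows printed held CAGAC or TGANTCA, which 49.6% and 7.81% of all windows hold. The Tgfbr2 window held 1 match to CAGAC and that of Tgfb2 held 2. These are matches of letters and were not measured as binding.

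The rest of the pathway was read from a list of 106 other genes, of which 42 were on the panel and 40 were tested. In the 6 comparisons of a drug with its vehicle, in the 2 means of 3 days and between vehicle-treated and untreated mice, 0 of the 40 were called. The largest of these differences by unadjusted p included Thbs1, which encodes a thrombospondin that can release TGF-beta from its latent form, with -1.28 ± 0.40 (SE; adjusted p = 0.0891) on day 1 after venetoclax. Fos, a target gene and AP-1 subunit, differed by 1.05 ± 0.32 (SE; adjusted p = 0.297) on day 7 after ruxolitinib. Both of these were named after their values were seen, as were the genes of the next paragraph.

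In vehicle mice, 11 of the 40 were called between days 1 and 7, or 27.5%, with 9 higher and 2 lower, beside the 30.1% of all genes. Among genes of activation and coreceptors 4 of 9 were called. Fn1, which encodes fibronectin, rose by 1.22 ± 0.31 (SE), the protease gene Mmp9 by 0.96 ± 0.23 (SE) and the coreceptor gene Nrp1 by 1.21 ± 0.29 (SE), while the integrin gene Itgb3 fell by 1.13 on the log2 scale (SE 0.24). Of 4 SMAD partners 1 was called, the transcription factor gene Runx1, which rose by 0.90 ± 0.26 (SE). Of 19 kinases and adaptors outside the SMAD route 5 were called, 4 higher and 1 lower, the lower being Atf2, a transcription factor gene. Of 8 textbook targets of the pathway only Jun was called, which rose by 1.14 ± 0.30 (SE), and the median of the 8 was -0.17. From day 3 to day 7, 13 of the 40 were called, or 32.5%, with 9 higher and 4 lower, beside the 29.6% of all genes (18.3% higher and 11.3% lower). None of the 19 other ligands and receptors of the superfamily on the list were on the panel.

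Markers of marrow cell types were also called between these days, and their part in the day 7 values was not tested. The counts below stand beside 30.1% of all genes called between days 1 and 7. A list near or under that share is not read as movement of its cell type. In vehicle mice from day 1 to day 7, 6 of 7 neutrophil markers were called, 4 higher and 2 lower, and their summed level went from a range of 79392 to 101811 on day 1 to 49187 to 58746 on day 7. The granule genes Elane and Mpo were among the 4 higher, by 2.35 ± 0.44 and 1.89 ± 0.34 (SE). S100a8 was among the 2 lower, by 1.00 on the log2 scale (SE 0.27). The other neutrophil markers called are not named, so no stage of neutrophil is read from these genes. Of 8 monocyte and macrophage markers 3 were called, all higher, and the sum went from 979 to 1126 on day 1 to 1461 to 2203 on day 7. Of 3 progenitor markers Cd34 and Flt3 were called, both higher, with sums of 23.8 to 46.4 on day 1 and 50.6 to 92.2 on day 7. Of 8 B lineage markers 3 rose and 3 fell, and the sums of 550 to 699 and 660 to 733 overlapped. Among 4 megakaryocyte and platelet markers Cd9 rose and Itgb3 fell, with sums of 177 to 276 and 235 to 309. Of 5 stromal markers Vcam1 rose, with sums of 100 to 119 on day 1 and 157 to 201 on day 7, and of 8 T cell markers only Cd3g, of 7 NK markers Klrd1 and Klrk1, and of 6 endothelial and 3 regulatory T cell markers none were called. No marker list had a gene on the panel that was never above background, but these sums too were taken without subtracting background.

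The genes whose pattern over the 33 mice was most like that of each TGF-beta gene were taken from the 358 genes over background in 30 lanes or more, as a description, since the mice share runs and the lanes share depth. For Tgfb1 they included Ly86 and Cd164, with Pearson's r of 0.87 for each on log2 values. For Tgfbr1 they were Ythdf2 (r = 0.87), Ccnd3 (r = 0.85) and Selplg (r = 0.82). Tgfbr2 had less similar partners, Ets1 (r = 0.71), Cmah (r = 0.63) and Ccr7 (r = 0.63). For Smad2 they were the granule genes Mpo (r = 0.85) and Ctsg (r = 0.81) and the fibronectin gene Fn1 (r = 0.81). For Smad3 they were Ikzf1 (r = 0.77), Cd99 (r = 0.69) and Psen2 (r = 0.68), and for Smad4 Irf8 (r = 0.76), Cd38 (r = 0.75) and Ccr1 (r = 0.75). Within the day 1, day 3 and day 7 runs, of 11 lanes each, r was 0.80, 0.68 and -0.18 for Smad2 with Mpo, 0.80, 0.80 and 0.14 for Tgfb1 with Ly86, and 0.93, 0.81 and 0.27 for Tgfbr1 with Ythdf2. For Tgfb1 with Cd164 it was 0.78, 0.69 and 0.60, and for Tgfbr2 with Cmah 0.64, 0.73 and 0.62. For Smad3 it was 0.87, 0.69 and -0.13 with Ikzf1, 0.67, 0.63 and -0.60 with Cd99 and 0.69, 0.78 and -0.39 with Psen2, and for Smad4 with Irf8 it was 0.87, 0.57 and -0.11. In the day 7 run these 4 pairs were thus below 0, as were Smad2 with Mpo and, at -0.015, Smad4 with Ccr1. Among the TGF-beta genes themselves the highest r was 0.68, between Tgfb1 and Tgfbr1, with 0.56, 0.56 and 0.14 within the day 1, day 3 and day 7 runs. The lowest was -0.54, between Smad3 and Smad4, with -0.68, 0.053 and -0.004 within the same runs.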

How the data were processed

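Bone marrow RNA of 33 mice was measured on the NanoString nCounter with 1 lane per mouse. The deposited values are raw counts per probe as the authors exported them, without the nCounter Advanced Analysis normalisation of their methods. Their methods name a Mouse PanCancer Immune Profiling Panel and the series text an immunology panel, with doses in mg/kg and in mg/ml respectively, so no dose is given here. Lanes were scaled on their housekeeping probes, using the geometric mean of those 11, of 20, that exceeded background throughout. Background was the mean plus 2 SD of the 8 negative probes. The 655 genes over background in 2 or more lanes entered edgeR's quasi-likelihood fit (version 4.0.16, R 4.3.3) with a mean for each of 13 groups, 20 residual degrees of freedom, Benjamini-Hochberg adjustment over all 655 and a threshold of 0.05. The coefficient of biological variation was 20.2%. SE and 95% intervals are Wald values on the log2 scale. The labels name separate mice, and groups of 2 or 3 mice limit the precision.

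The 8 genes, the pathway and marker lists and the rules were chosen with earlier results of these data known. The rule named the 8 genes, pathway genes called in a drug or vehicle against untreated comparison (0 were), and the 3 genes most correlated with each. A gene among the latter is not reported here. Alternatives were TMM, total count or all 20 housekeeping probes for scaling, DESeq2 1.42.0, limma 3.58.1 on log2(normalised count + 1) with and without background subtraction, no filter or a mean count of at least 20, the replicate number as a block, only the groups compared, both vehicles pooled, the run as a block, and each mouse left out. Subtracting the untreated mice of the same runs and leaving out the 2 lanes under 30000 counts were added after seeing the data. No 2 lanes were identical.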

Additional observations from a re-analysis of the deposited data

How the results depend on the processing

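In the comparisons of drugs with their vehicles, of the drugs with each other, of the vehicles and of vehicle-treated with untreated mice, 0 TGF-beta genes were called in every alternative that was run. Between days 1 and 7 in vehicle mice the count of 3 became 5 with a mean count of at least 20, with the replicate block and without the 2 lanes under 30000 counts. It became 0 with limma after background subtraction and 0 after subtracting the untreated mice, and 1 to 4 when a mouse was left out. Between days 3 and 7 the count of 4 became 2 with all housekeeping probes and 0 with limma, with limma after background subtraction and after subtracting the untreated mice, and 0 to 4 when a mouse was left out. The count of 2 for any difference among the groups became 0 with both limma fits and 1 to 4 when a mouse was left out. A turn of sign was counted only where a log2 fold change exceeded its SE. After subtracting the untreated mice, the signs turned between days 1 and 7 for Tgfb1 (-0.28), Tgfbr1 (-2.14) and Smad2 (-1.25) and between days 3 and 7 for Smad2 (-1.56), all uncalled and resting on 1 untreated mouse a run, of which that of day 1 was not above background for Smad2 and Tgfbr1, so that no direction is read from their values against day 1. They also turned for Tgfb3 between vehicle-treated and untreated mice with limma after background subtraction (0.17) and for Smad4 between days 1 and 3 without ruxolitinib vehicle day 3 mouse 2 (values of -0.027 to 0.47 when a mouse was left out). The cause was not tested. The replicate numbers did not pair the mice: the median correlation of deviations was -0.016 for mice of the same number and 0.0065 for others, and the block with its 5 calls between days 1 and 7 also gave 5 between days 3 and 7.

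The scaling moved the median of all genes between days 1 and 7 from 0.19 to -0.0071 with TMM and 0.44 with the total count. Of the genes called there, 66.5% were higher, against 45.6% with TMM, 47.5% with all housekeeping probes, 48.6% with DESeq2 and 87.2% with the total count, and between days 3 and 7 61.9%, against 48%, 47%, 50% and 83.7%. With TMM, DESeq2 and all housekeeping probes Smad3 was called between days 1 and 7, with log2 fold changes of -0.67, -0.66 and -0.67. With limma the 197 and 194 genes called between days became 121 and 119, and after background subtraction 25 and 44. The 18 genes called on day 1 after ruxolitinib were 77 in a fit of only the groups compared, 31 with both vehicles pooled, 5 with limma and 3 after background subtraction, and the 1 gene after venetoclax was 19 and 26 in the first 2 of these. The 19 and 8 genes called for the means of 3 days were 10 and 0 with limma. Tgfb2 and Tgfb3 stayed at 1 to 7 raw counts in lanes of any depth. They had 5 and 2 in the deepest, that of venetoclax day 7 mouse 3 at 466096 counts. The lanes where Smad2, Smad4 or Tgfbr1 was not above background had 18056, 26881 or 47977 counts.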
